A study of Rattus norvegicus with 192 samples.

Results

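Whole blood was profiled 3, 6 and 24 h after male Sprague-Dawley rats had breathed phosphine (PH3) or air, and the comparison of PH3 with Air at each of these times is described here. The groups were taken from the array titles, which give tissue, exposure, time and rat number. They hold 23 of the 192 arrays of the study, namely 4 PH3 and 4 Air arrays at 3 h, 4 and 4 at 6 h, and 4 PH3 and 3 Air arrays at 24 h. All 31042 probe sets other than the Affymetrix controls were tested, which represent 13438 genes through 19063 probe sets with 1 gene symbol. Gene expression was read on Affymetrix 3 prime arrays as log2 intensity.

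Each rat was exposed whole-body and once. PH3 rats breathed 660 ppm for 25 min, a product of 16500 ppm min that the study's design text sets at 0.71 of the LCt50 (the concentration times time that kills the median animal), and Air rats breathed 0 ppm for the same 25 min. All rats weighed 300 to 400 g and were kept in 12 h of light and 12 h of dark. The ages of the rats were not given in the sources used here. All were killed under ketamine and xylazine, blood was taken from the heart by needle, and its RNA was prepared with a blood kit (RNeasy Protect Animal Blood). Whether red cells or globin transcripts were removed is not given in the sources used here. Each array comes from a different rat, so the spread between arrays includes the spread between animals.

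Phosphine is a fumigant gas that interferes with mitochondrial respiration, and cytochrome c oxidase, the last enzyme of the respiratory chain, is its best known target. It also forms oxidants and is known to damage haemoglobin in red cells. Whole blood RNA comes from reticulocytes, the young red cells that still hold RNA, and from platelets, neutrophils, monocytes and lymphocytes. In stressed mammals adrenal glucocorticoids redistribute leukocytes: neutrophils enter the circulation from bone marrow and vessel walls, and lymphocytes and eosinophils leave it. In bulk blood, fewer cells of a type and less RNA per cell cannot be told apart.

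The arrays matched their tissue labels, and their rat labels within each group. All 31 blood arrays of the study were closer to other blood arrays than to any other tissue. Among the rats of the same group, 31 of 31 resembled the other tissues of their own rat best over the 200 probe sets used for that check. Rats of other groups were not candidates, so this check cannot show a swapped exposure or time label. Of the red cell and reticulocyte markers, 15 of 19 measured were higher on every blood array than on every array of another tissue, and the same held for 13 of 18 T cell and 8 of 10 platelet markers. The mean over 11 heart muscle genes was 4.27 to 5.38 on blood arrays, against up to 12.48 in other tissues. Correlations between blood arrays ran from 0.7767 to 0.9515. Blood was the most variable of the 6 tissues: the median residual SD of a probe set, within groups, was 0.5 in blood and 0.154 to 0.253 in the other tissues.

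With all arrays, blood did not differ detectably between PH3 and Air at any of the 3 times. At 3 h limma called 0 of 31042 probe sets (0%) at an adjusted p under 0.05, and 910 (2.93%) had an unadjusted p under 0.05. At 6 h it called 0 (0%), with 1315 (4.24%) under the unadjusted threshold. At 24 h it called 0 (0%), with 2018 (6.5%) under the unadjusted threshold, 1015 of them higher and 1003 lower in PH3. The smallest adjusted p was 1 at 3 h, 0.998 at 6 h and 0.765 at 24 h. The F test of all 3 times together called 0 probe sets (0%), with 1228 under the unadjusted threshold and a smallest adjusted p of 1. The effect of PH3 did not differ detectably between 3, 6 and 24 h either, with 0 called (0%) and 1265 under the unadjusted threshold, nor when the 1 h blood arrays were included, with 0 called (0%) and 1573 under it.

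**Figure D1:**
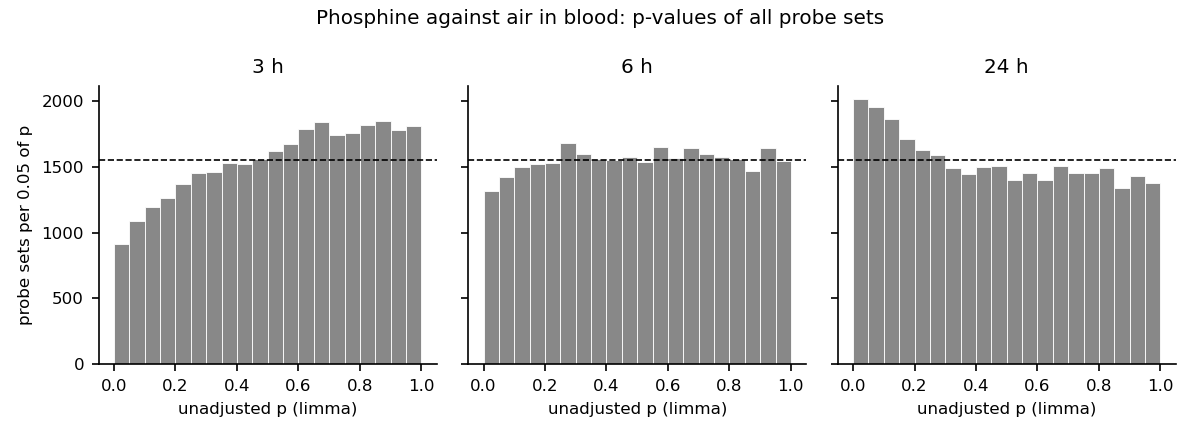
Histograms of the unadjusted limma p-values of 31042 probe sets (x axis, in steps of 0.05; y axis, number of probe sets) for PH3 against Air in blood at 3, 6 and 24 h; the dashed line is the even share of a step. The first step holds 910 probe sets at 3 h and 1315 at 6 h, both under the line, and 2018 at 24 h, above it.

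These counts limit what could have been seen. The median standard error of a PH3 minus Air difference was 0.347 log2 units at 3 and 6 h and 0.375 at 24 h, so that a 95% interval reached a median of 0.71 units to either side at 3 and 6 h and 0.767 at 24 h. The whole interval lay within 1 log2 unit of 0 for 58.7% of probe sets at 3 h, 55% at 6 h and 44% at 24 h. For the remainder the interval reached a change of 1 unit or beyond, which was not excluded. The median difference over all genes was 0.013 at 3 h, -0.04 at 6 h and 0.005 at 24 h, and 51.7%, 44.9% and 50.4% of genes were above 0. These shares are the background of every count of list genes above 0 given below.

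The spread within a group was uneven. The first principal component carried 23.1% of the variance of the blood arrays. At 24 h the PH3 arrays scored -91.0 (Rat325), -70.3 (Rat326), 50.1 (Rat333) and -109.6 (Rat341), and the Air arrays scored -57.2 (Rat328), 25.6 (Rat335) and 6.6 (Rat340). Rat333 thus stood on the opposite side from the other PH3 rats of its time, and Rat328 lay nearer to those PH3 rats than to the other Air rats. Rat341 had the lowest median correlation with the other blood arrays, 0.84. An index of RNA integrity, the mean 3 prime minus 5 prime log2 signal of the Gapdh and beta-actin control probe sets, was 0.322 ± 0.027 (SD, n = 4) in Air and 0.351 ± 0.0824 (n = 4) in PH3 at 3 h. It was 0.348 ± 0.132 (n = 4) and 0.501 ± 0.347 (n = 4) at 6 h, and 0.422 ± 0.133 (n = 3) and 0.492 ± 0.086 (n = 4) at 24 h. The difference did not pass at any time by an exact two-sided permutation test (p = 0.629, 0.6 and 0.429 in time order, all 0.629 after Benjamini-Hochberg adjustment over the 3 times, where the smallest possible p was 0.0286). One array, PH3 Rat381 at 6 h, had an index of 1.02, against 0.30 to 0.35 in the other PH3 rats of 6 h.

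**Figure D2:**
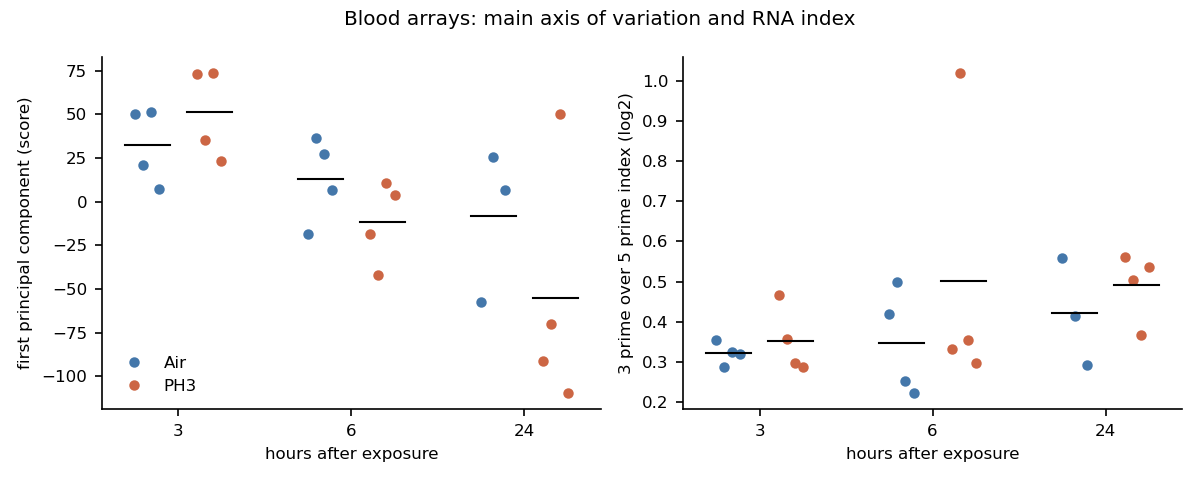
First principal component score (left) and the 3 prime over 5 prime index in log2 units (right) of each blood array at 3, 6 and 24 h, with points for arrays, blue for Air, orange for PH3, and bars for group means. Rat333, at 50.1, is the single PH3 array of 24 h above 0 on the left, and Rat381, at 1.02, stands above all others on the right.

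Red cell and reticulocyte genes had medians near 0. Of 19 measured, 3 were above 0 at 3 h, 5 at 6 h and 9 at 24 h, and the median difference was -0.10, -0.09 and -0.03. None was called at any time. Alas2, the erythroid enzyme that starts haem synthesis, was 13.32 ± 0.0521 (SD, n = 4) in Air and 13.28 ± 0.0492 (n = 4) in PH3 at 3 h, 13.23 ± 0.0347 and 13.25 ± 0.0278 at 6 h (n = 4 and 4), and 13.26 ± 0.0485 (n = 3) and 13.31 ± 0.0562 (n = 4) at 24 h. Its 95% interval was -0.34 to 0.26 at 3 h, -0.28 to 0.32 at 6 h and -0.27 to 0.38 at 24 h. The highest array value was 14.18 over all probe sets, so Alas2 lay close to the top of the scale, where Affymetrix signals can be compressed. Ahsp, which binds and stabilises free alpha globin, differed by -0.13, -0.05 and -0.47 in time order. At 24 h Ahsp read 11.83, 11.74 and 12.18 in Air and 11.73, 11.80, 12.05 and 10.21 in PH3, where Rat341 alone lay far below the Air range. Alad, a cytosolic enzyme of haem synthesis, differed by -0.63 at 3 h (95% interval excluding 0 before adjustment, adjusted p of 1) and by 0.26 at 24 h.

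Car1, the carbonic anhydrase 1 of red cells, read 9.40, 9.82, 9.44 and 9.44 in Air and 8.73, 8.98, 8.61 and 8.32 in PH3 at 3 h. Every PH3 array was below every Air array, and the difference was -0.87 (SE 0.428, 95% interval -1.74 to 0.01), against -0.09 at 6 h and 0.03 at 24 h.

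Tfrc is the transferrin receptor, through which reticulocytes and dividing cells take up iron. Of the 19 measured red cell and reticulocyte genes it had the highest difference at 3 and 6 h, where 16 and 14 were below 0. Of 23 genes of dividing cells, 14 and 15 were below 0 at these times. At 3 h Tfrc read 8.29, 9.01, 9.30 and 8.81 on the Air arrays and 10.35, 10.02, 10.11 and 9.73 on the PH3 arrays. At 6 h it read 8.22, 8.10, 8.94 and 8.75 in Air and 9.89, 8.96, 9.55 and 10.79 in PH3. The groups did not overlap at either time, although at 6 h the lowest PH3 array lay only just above the highest Air array. At 24 h the Air arrays read 9.27, 9.94 and 9.15 and the PH3 arrays 8.50, 9.55, 10.42 and 6.34, which overlap widely. The difference was 1.20 (SE 0.625, 95% interval -0.08 to 2.48) at 3 h, 1.29 (SE 0.625, 0.02 to 2.57) at 6 h and -0.75 (SE 0.675, -2.13 to 0.63) at 24 h, and the adjusted p from limma was at least 0.765 at each time. A dimmer probe set of Tfrc, with a mean of 5.25, differed by 1.29, 0.98 and -0.66. Arrays without overlap are no rarity in groups of this size: the PH3 arrays lay wholly above Air for 1.1% of all probe sets at 3 h, 1.5% at 6 h and 2.77% at 24 h, and wholly below for 1.45%, 1.36% and 1.44%.

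Neutrophil genes differed one way at 3 h and the other at 6 h, without any call. Of 12 measured, 11 were above 0 at 3 h (51.7% of all genes were), 0 at 6 h (44.9%) and 5 at 24 h (50.4%), with median differences of 0.45, -0.55 and -0.34. The mean over these 12 genes was 7.60, 7.83, 8.37 and 7.49 on the Air arrays and 8.68, 8.54, 8.85 and 7.43 on the PH3 arrays of 3 h. At 6 h it was 7.50, 8.83, 8.60 and 7.60 in Air and 7.92, 7.76, 6.98 and 7.73 in PH3. At both times the groups overlapped: PH3 Rat399 was the lowest array of 3 h, and at 6 h the Air rats themselves lay in a low pair and a high pair. The 12 genes share their arrays and are not independent measurements.

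The decoy receptor for interleukin 1, Il1r2, which neutrophils carry and glucocorticoids induce, read 8.05, 7.96, 8.67 and 7.59 in Air and 8.71, 9.48, 10.04 and 8.29 in PH3 at 3 h. Of the PH3 arrays, only Rat399 lay within the Air range. The difference was 1.06 (SE 0.449, 95% interval 0.14 to 1.98), and it was -0.65 (SE 0.449) at 6 h and -0.27 (SE 0.485) at 24 h. Mmp9, a gelatinase stored in neutrophil granules, differed by 1.13 at 3 h, -0.55 at 6 h and 0.19 at 24 h. Lcn2, an iron-scavenging granule protein, differed by 0.96, -1.06 and 0.05. S100a9, which with S100a8 makes the calprotectin of the neutrophil cytosol, read 11.41, 11.79 and 11.61 in Air and 11.11, 10.92, 11.31 and 11.20 in PH3 at 24 h. Every PH3 array was below every Air array there, and the difference was -0.47 (SE 0.268, interval -1.02 to 0.08). Mmp8, the neutrophil collagenase, read 3.89, 5.15 and 5.77 in Air and 3.37, 2.87, 3.21 and 3.63 in PH3 at 24 h. These groups did not overlap either, and the difference was -1.66 (SE 0.7, interval -3.09 to -0.23) at a level near the bottom of the scale.

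For NK and cytotoxic cells 15 genes were measured. Of these, 8 were above 0 at 3 h (51.7% of all genes were), 5 at 6 h (44.9%) and 2 at 24 h (50.4%). The medians were 0.02, -0.22 and -0.43. No gene of the list was called at any time, and at 24 h 3 had an unadjusted p under 0.05, all of them lower in PH3. Of all 31042 probe sets 6.5% had such a p at 24 h, with 1003 lower. The mean over the 15 was 7.14, 7.19 and 7.16 on the Air arrays of 24 h and 6.64, 6.47, 7.05 and 6.36 on the PH3 arrays. The PH3 arrays all lay below Air, with Rat333 closest to the Air arrays. Over the 27 lists and 3 times, list means also separated for monocytes at 24 h and for acute inflammation and NF-kB genes at 6 h. They overlapped in all other cases, and the separation of list means was not tested. Gzma, a granule protease of these cells, read 8.11, 8.22 and 7.49 in Air and 6.73, 6.06, 7.84 and 5.69 in PH3 at 24 h. Rat333 was again the PH3 array inside the Air range, and the difference was -1.36 (SE 0.594). Gzmk, a related protease, differed by -1.01 at 24 h with overlap. Klrd1, the CD94 subunit of NK cell receptors, read 4.25, 7.85 and 6.73 in Air and 3.35, 4.05, 7.09 and 2.87 in PH3 at 24 h, so that the groups overlapped and the Air arrays alone spanned more than 3 log2 units. Klra22, a lectin-like receptor of the NK receptor family, read 6.59, 6.79, 6.81 and 7.11 in Air and 4.40, 5.16, 6.46 and 5.87 in PH3 at 6 h, without overlap. That difference was -1.35 (SE 0.369, adjusted p = 0.998 from limma), and the gene belongs to a family of near-identical copies, among which a probe set may not separate members.

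**Figure D3:**
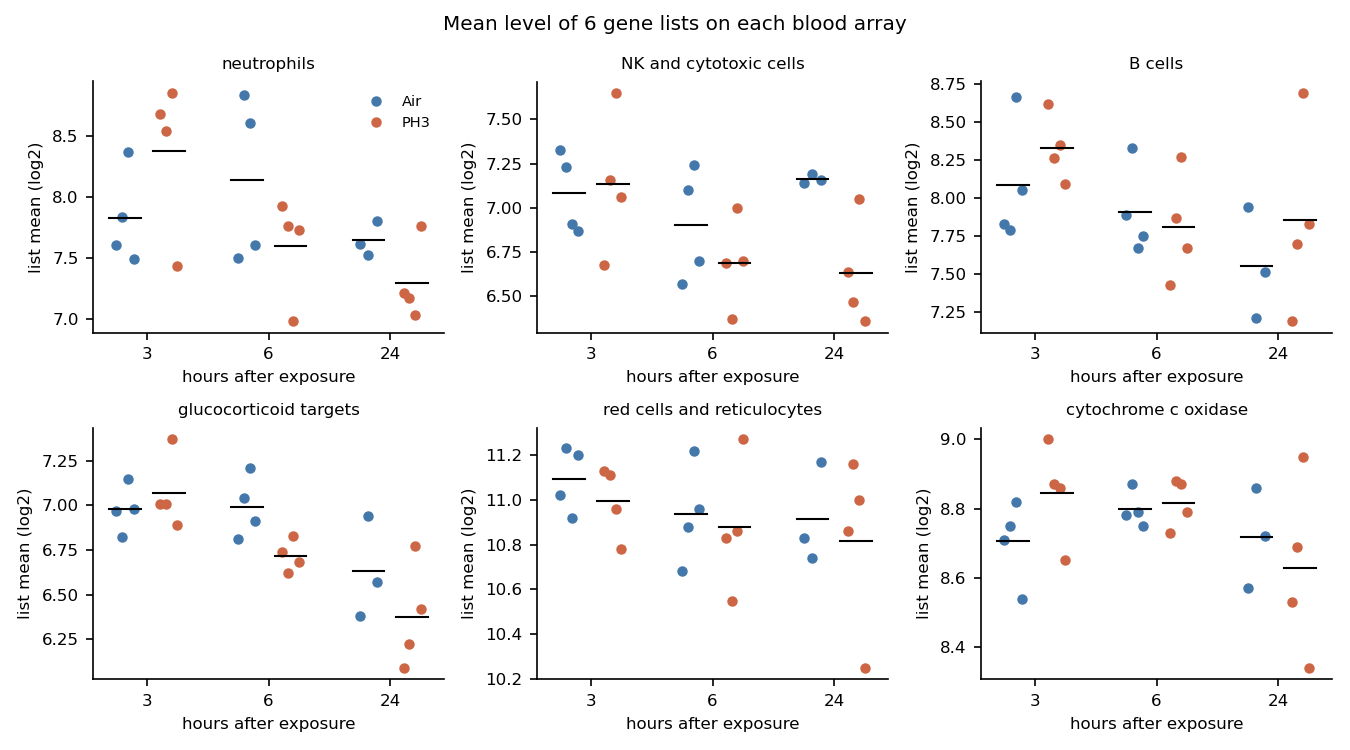
Mean log2 level over the measured genes of 6 lists (y axes) on each blood array at 3, 6 and 24 h (x axes), with points for arrays, blue for Air, orange for PH3, and bars for group means. The NK and cytotoxic means at 24 h are 7.14 to 7.19 in Air and 6.36 to 7.05 in PH3, and the neutrophil means of Air and PH3 overlap at all 3 times.

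T cell genes had medians near 0. The median difference of 18 T cell genes was 0.03, -0.07 and -0.06, with 11, 6 and 4 above 0 in time order. Cd3e, a signalling chain of the T cell receptor, differed by 0.00 (95% interval -0.41 to 0.41) at 3 h, -0.14 (-0.56 to 0.27) at 6 h and -0.01 (-0.46 to 0.43) at 24 h. Cd8a differed by -0.17, -0.12 and -0.03. The survival cytokine receptor Il7r was the T cell gene farthest from 0 at 24 h, at -1.86 (SE 0.621), and its arrays read 6.34, 9.37 and 7.57 in Air and 5.61, 5.45, 7.62 and 4.95 in PH3. The Air arrays alone spanned 3 log2 units, and the groups overlapped. Trat1, an adaptor protein of the T cell receptor, differed by 1.39 at 3 h without overlap of the groups, at a mean level of 3.967 where signal is close to background.

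B cell genes had a median difference of 0.33 at 3 h (10 of 11 above 0), -0.08 at 6 h (4 of 11) and 0.30 at 24 h (8 of 11). None was called. With 1 array left out the median at 24 h ran from 0.16, without PH3 Rat333, to 0.60, without Air Rat328. Cd79b, a chain of the B cell receptor, differed by 0.23 (interval -0.46 to 0.92), -0.05 (-0.74 to 0.65) and 0.29 (-0.46 to 1.04). Cr2, the complement receptor CD21, read 5.05, 4.26 and 4.54 in Air and 5.18, 5.87, 6.25 and 5.54 in PH3 at 24 h. The PH3 arrays all lay above Air, and the difference was 1.09 (SE 0.45). Rat333, which had the highest Cr2 of the group, also had the highest mean over the B cell list of any array of 24 h, 8.69. Fcrla, an intracellular Fc receptor homologue of B cells, differed by 0.33, -0.08 and 0.61.

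Monocyte genes had medians of 0.05, -0.04 and -0.24 with 9, 7 and 2 of 14 above 0, and none was called. The mean over the 14 was 7.61, 7.69 and 7.64 on the Air arrays of 24 h and 7.27, 7.16, 7.36 and 7.46 on the PH3 arrays, so that every PH3 array lay below every Air array. Of the 27 lists, only the monocyte and the NK and cytotoxic lists had means without overlap at 24 h. Ccr2, the chemokine receptor that brings monocytes out of the marrow, differed by -1.08 (SE 0.506) at 24 h with overlap. Platelet genes had medians of 0.17, 0.15 and 0.01, with 8, 7 and 5 of 10 above 0. The 9 genes of eosinophils and basophils had medians of -0.06, -0.07 and -0.05, and none was called. At 6 h 1 was higher and 2 were lower at an unadjusted p under 0.05, which 4.24% of all probe sets had at that time. Mcpt8, a protease of basophils outside that list, was among the genes with the smallest p at 6 h and read 3.32, 3.38, 3.49 and 2.89 in Air and 4.30, 5.43, 3.67 and 4.60 in PH3. Fcer1a, on the list as the IgE-binding chain of the high-affinity IgE receptor, read 3.37, 3.07, 3.41 and 3.04 in Air and 4.0, 4.19, 3.46 and 3.86 in PH3 at 6 h. All PH3 arrays were above all Air arrays in both genes, Rat381 (the array with the high 3 prime index) was the highest in each, and both genes were close to the lowest values of the arrays. Cpa3, a mast cell protease that basophils also express, differed the other way at 6 h, by -0.77 with overlap. Prg2, the major basic protein of eosinophil granules, read 5.55, 5.49, 5.47 and 5.76 in Air and 4.51, 4.37, 5.07 and 4.16 in PH3 at 6 h. Its PH3 arrays all lay below Air, and the difference was -1.04 (SE 0.427). The Mcpt8 difference was 1.23 (SE 0.329, adjusted p = 0.998 from limma) and that of Fcer1a 0.65 (SE 0.231).

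Glucocorticoid targets were looked at because phosphine exposure is a stress and blood leukocytes respond to adrenal hormones. Of 24 measured, 16 were above 0 at 3 h (51.7% of all genes were), 3 at 6 h (44.9%) and 10 at 24 h (50.4%). The medians were 0.08, -0.29 and -0.18, and none was called. Fkbp5, a chaperone partner of the glucocorticoid receptor and one of its most regular targets, read 6.41, 7.50, 6.17 and 6.71 in Air and 6.56, 7.20, 7.34 and 6.05 in PH3 at 3 h. The difference there was 0.09 (SE 0.361, interval -0.65 to 0.83). At 6 h Fkbp5 read 7.32, 7.40, 7.26 and 7.98 in Air and 6.65, 6.58, 7.35 and 6.74 in PH3, where PH3 Rat387 was the array inside the Air range, and the difference was -0.66 (SE 0.361, interval -1.40 to 0.08). At 24 h it was -0.97 (SE 0.39, interval -1.76 to -0.17), with overlap. Per1, a clock gene that glucocorticoids induce, read 6.59, 6.42, 6.36 and 6.90 in Air and 5.94, 6.23, 6.03 and 5.63 in PH3 at 6 h, without overlap, and differed by -0.61 (SE 0.314). Tsc22d3, which encodes the anti-inflammatory protein GILZ, differed by 0.15, -0.29 and -0.68. Anxa1, an anti-inflammatory protein that is both a neutrophil gene and a glucocorticoid target here, read 8.84, 10.10 and 9.93 in Air and 7.07, 7.82, 9.51 and 7.98 in PH3 at 24 h. Only Rat333 lay within the Air range, and the difference was -1.53 (SE 0.478), against -0.69 for a second Anxa1 probe set.

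**Figure D4:**
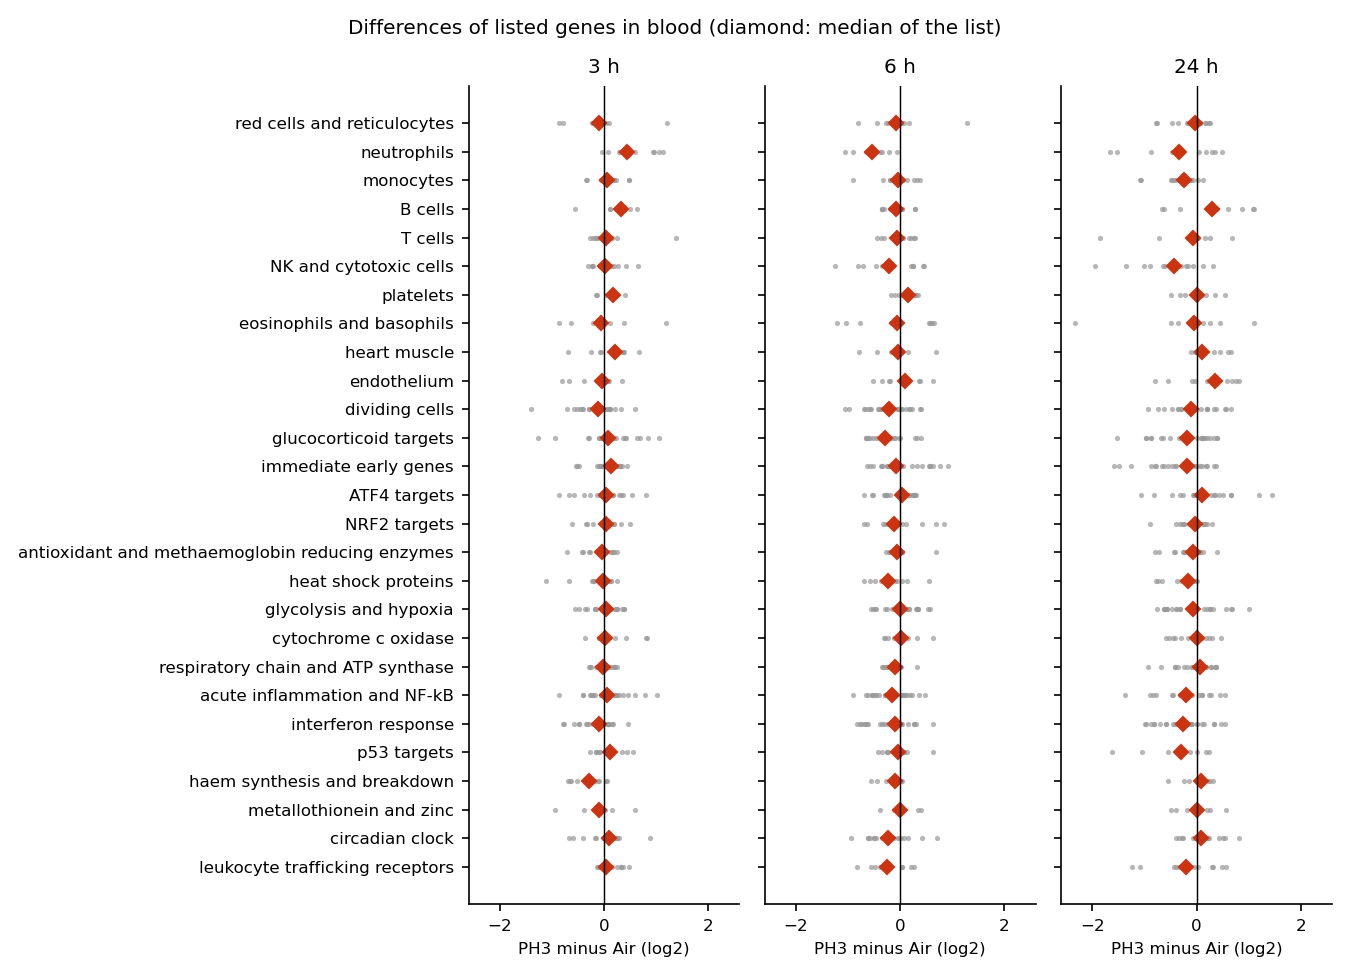
PH3 minus Air differences in log2 units (x axes) at 3, 6 and 24 h of the measured genes of 27 lists (rows), with grey points for genes and red diamonds for list medians. Neutrophil genes have medians of 0.45, -0.55 and -0.34, NK and cytotoxic genes reach -0.43 at 24 h, and cytochrome c oxidase stays at 0.01, 0.02 and 0.00.

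Genes of phosphine's best known target had medians near 0. The 13 measured subunits and assembly factors of cytochrome c oxidase had medians of 0.01, 0.02 and 0.00, with 7 above 0 at each time. Cox4i1, the regulatory subunit IV found in most tissues, was 11.84 ± 0.0279 (SD, n = 4) in Air and 11.78 ± 0.0703 (n = 4) in PH3 at 3 h. It differed by -0.06 (interval -0.38 to 0.25) at 3 h, -0.02 (-0.33 to 0.30) at 6 h and 0.18 (-0.16 to 0.52) at 24 h. Cox5a differed by 0.80, 0.63 and -0.52 at a much lower signal. The 22 genes of the other respiratory complexes and ATP synthase had medians of -0.01, -0.11 and 0.07, with 10, 3 and 12 above 0.

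Oxidant defence genes were also near 0. Catalase (Cat), which red cells hold in large amounts, differed by -0.03 (interval -0.44 to 0.37), -0.17 (-0.57 to 0.24) and -0.24 (-0.67 to 0.20). Gclm, the regulatory subunit of glutathione synthesis, differed by -0.02, -0.29 and 0.03. Its small difference at 24 h hides a split: Gclm read 11.23, 11.16 and 11.46 in Air and 11.56, 11.69, 11.63 and 10.38 in PH3. All PH3 arrays but Rat341, at 10.38, lay above every Air array. Hmox1, the haem-degrading enzyme that NRF2 induces, differed by -0.32 (interval -1.16 to 0.53), -0.33 (-1.17 to 0.52) and 0.12 (-0.80 to 1.03). The 18 NRF2 targets measured had medians of 0.03, -0.12 and -0.03, and the 17 antioxidant and methaemoglobin reducing enzymes -0.03, -0.07 and -0.07. Heat shock genes had medians of -0.02, -0.24 and -0.16 with 6, 3 and 0 of 13 above 0, and the median at 24 h was -0.39 without PH3 Rat333. Hspa1a, the inducible HSP70, differed by -1.11 (SE 0.357) at 3 h, where it read 5.67, 6.27, 6.91 and 5.66 in Air and 4.80, 4.71, 4.96 and 5.60 in PH3, without overlap.

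The gene with the smallest p at 24 h was on the list of ATF4 targets, the genes that cells switch on when protein synthesis or mitochondria are disturbed. Atf5, a stress-regulated transcription factor that acts on mitochondrial protein quality, read 7.36, 7.10 and 7.71 in Air and 8.64, 8.48, 8.49 and 8.70 in PH3 at 24 h. The PH3 arrays lay close together and above every Air array. The difference was 1.19 (SE 0.26, interval 0.66 to 1.72, adjusted p = 0.765 from limma), the smallest p of 31042 probe sets at that time, and it did not pass. It was -0.27 at 3 h and 0.17 at 6 h. Nupr1, another stress-induced ATF4 target, differed by 1.45 at 24 h, and Atf4 itself by -0.81. Over the list, 15 of 25 were above 0 at 24 h, with a median of 0.11. Ddit3, the ATF4 target that encodes CHOP, differed by 0.01, -0.25 and 0.11, and Gdf15, a stress hormone, by 0.29, 0.24 and -0.01.

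**Figure D5:**
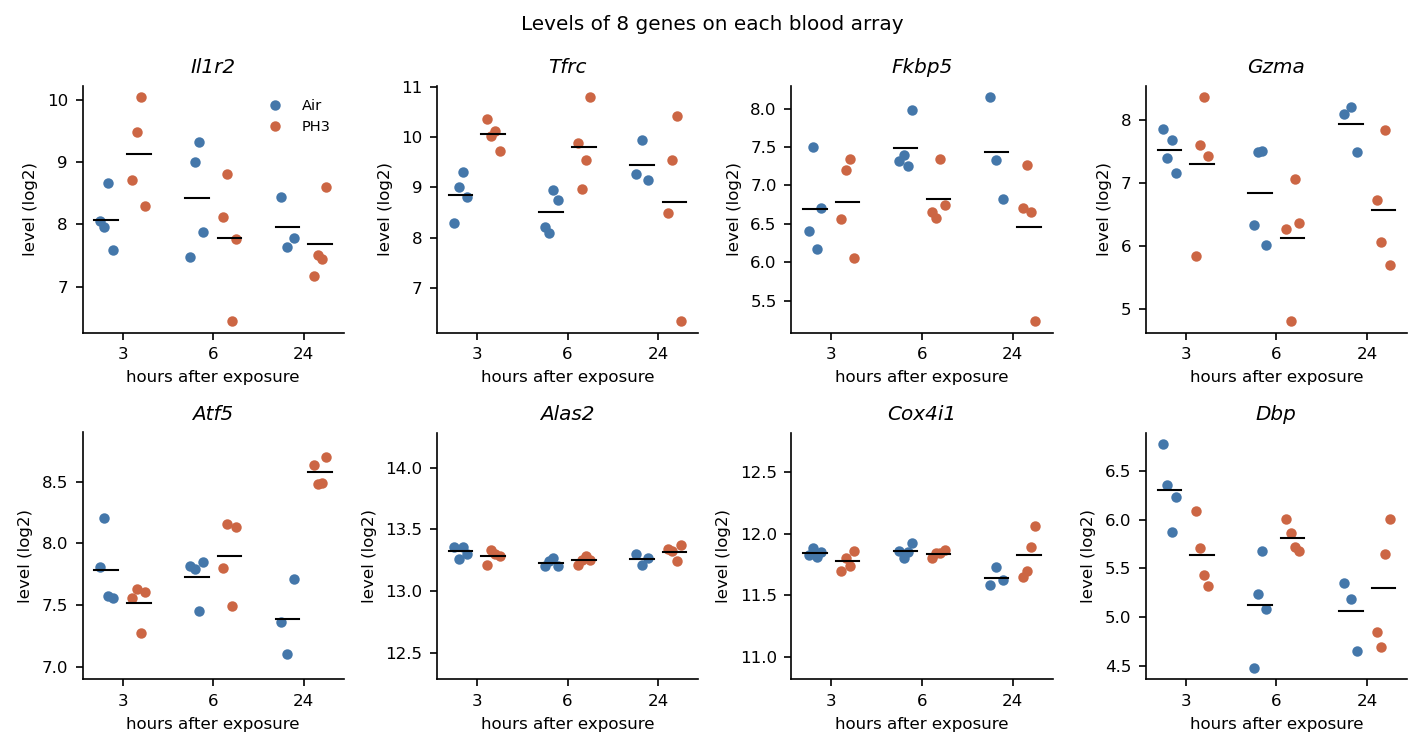
Log2 level (y axes, each spanning at least 2 units) of 8 genes on each blood array at 3, 6 and 24 h (x axes), with points for arrays, blue for Air, orange for PH3, and bars for group means. Tfrc does not overlap at 3 and 6 h, Atf5 separates at 24 h, and Alas2 and Cox4i1 lie within a narrow band throughout.

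The other genes with the smallest p-values were mostly dim and of mixed function. At 3 h the 8 named as higher differed by 0.99 to 1.67 log2 units, and the 8 named as lower by -1.0 to -1.41. Pds5a, a regulator of cohesin, read 6.57, 6.40, 5.88 and 5.48 in Air and 7.30, 7.28, 6.82 and 7.80 in PH3. Tyms, the enzyme that makes thymidylate for DNA synthesis, read 6.52, 7.37, 6.67 and 7.28 in Air and 5.40, 5.62, 5.73 and 5.44 in PH3. Neither overlapped, and Tyms differed by -1.41 (SE 0.444), whereas the median over 23 genes of dividing cells was -0.11. Map3k6, a stress-activated kinase on the glucocorticoid list, differed by -1.26 at 3 h and by 0.33 at 6 h.

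At 6 h the genes named as higher differed by 0.96 to 1.45 and those named as lower by -0.81 to -1.35. Gstk1, a glutathione transferase of mitochondria and peroxisomes, read 5.12, 5.80, 6.55 and 6.29 in Air and 6.84, 6.95, 6.87 and 7.79 in PH3. Its PH3 arrays of 6 h resembled the arrays of 3 h, which read 6.72 to 7.16 in both exposures, and the Air arrays of 6 h were the low ones. Il13, a cytokine of type 2 immunity, differed by -0.81 at a mean level of 3.703. Slc7a8, a carrier of neutral amino acids, differed by 1.45 and Osbpl3, an oxysterol-binding protein, by -1.31.

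At 24 h the genes named as higher differed by 1.06 to 1.86. Trarg1, a protein of GLUT4 trafficking in fat and muscle, read 3.86, 4.08 and 3.55 in Air and 6.29, 5.54, 4.91 and 6.00 in PH3, and differed by 1.86 (SE 0.436). Mau2, a partner of the cohesin loader, differed by 1.19, but 3 further Mau2 probe sets differed by 0.43, 0.23 and -0.80. Genes named as lower differed by -0.81 to -1.48, with Slc23a1, a vitamin C transporter, at -1.48. Mfsd1, a lysosomal transporter, differed by -1.31, while its other probe set differed by 0.82.

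The 3 times did not share a pattern. Over 13438 genes, differences at 3 and 6 h correlated with r of -0.1, those at 3 and 24 h with -0.19 and those at 6 and 24 h with 0.22. Genes are not independent replicates, and these values describe the arrays. The sign was the same for 45.4%, 43.1% and 56.7% of genes. No gene had PH3 arrays wholly above, or wholly below, the Air arrays at all 3 times, while 21 genes were wholly above at 2 of them and 6 wholly below. By p-value of the difference between times, the leading genes were Itih1, Dnase1l2, Acmsd, Trarg1, Pds5a and Prm2, none of them called. Itih1, a chain of the inter-alpha inhibitor that liver secretes into plasma, differed by -0.73, -0.55 and 1.27. At 24 h its PH3 arrays read 6.47 to 6.88, within the 5.95 to 6.97 of the Air arrays of 3 and 6 h. The Air arrays of 24 h were lower, at 4.89 to 5.61. Acmsd, an enzyme of tryptophan breakdown known from liver and kidney, differed by -1.04 at 3 h, 0.92 at 6 h and 0.34 at 24 h.

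Clock genes vary with the time of day, which the labels do not give. Dbp, a clock output gene, read 6.78, 6.36, 5.87 and 6.23 in Air and 6.09, 5.71, 5.43 and 5.32 in PH3 at 3 h, and 4.48, 5.24, 5.68 and 5.08 in Air and 6.01, 5.86, 5.72 and 5.68 in PH3 at 6 h. The PH3 arrays read alike at both times, 5.32 to 6.09 at 3 h and 5.68 to 6.01 at 6 h. The Air arrays were the ones that differed, 5.87 to 6.78 at 3 h and 4.48 to 5.68 at 6 h. At 3 h 1 PH3 array overlapped with Air. At 6 h the groups touched at the highest Air array, 5.68, which equalled the lowest PH3 array. The differences were -0.67 (SE 0.297), 0.70 (SE 0.297) and 0.24 (SE 0.321). The 17 clock genes had medians of 0.09, -0.24 and 0.08. Nr1d1, a clock repressor, differed by 0.09, 0.07 and -0.07.

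Immune response genes gave no call. Interferon response genes had medians of -0.09, -0.11 and -0.26 with 7, 7 and 8 of 28 above 0. Mx2, an interferon-induced GTPase, differed by -0.48, -0.63 and 0.01, and a second, dimmer Mx2 probe set by 0.10, 0.76 and 0.21. Acute inflammation and NF-kB genes had medians of 0.06, -0.16 and -0.20 over 26, and Tnf differed by -0.90 at 6 h. The mean over the 26 was 5.83 to 5.97 in Air and 5.68 to 5.78 in PH3 at 6 h, without overlap. No other of the 27 lists had means without overlap at 6 h, and none had at 3 h. Immediate early genes had medians of 0.14, -0.08 and -0.18 with 18, 12 and 7 of 26 above 0. Egr2, a growth-signal transcription factor, read 4.56, 4.07, 4.20 and 3.78 in Air and 5.03, 5.30, 4.78 and 5.18 in PH3 at 6 h, without overlap, and a second Egr2 probe set differed by -0.48 where this one differed by 0.92. Dusp6, a phosphatase that limits ERK signalling, differed by -1.59 at 24 h, with 6.98, 8.66 and 8.21 in Air and 6.16, 6.60, 8.16 and 4.54 in PH3. Its dimmer probe sets differed by -0.71 and -0.20 at 24 h. The p53 target Ccng1 differed by -1.62 at 24 h, and its PH3 arrays ran from 4.54 in Rat341 to 9.11 in Rat333.

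The remaining lists had medians between -0.30 and 0.35. Glycolysis and hypoxia genes had 0.04, 0.00 and -0.06 over 24, haem synthesis and breakdown genes -0.28, -0.11 and 0.08 over 10, metallothionein and zinc genes -0.09, -0.01 and 0.01 over 6, and p53 targets 0.11, -0.05 and -0.30 over 11. Leukocyte trafficking receptors had 0.04, -0.25 and -0.20 over 13. Cxcr4, which keeps leukocytes in marrow and is induced by glucocorticoids, differed by 0.37, -0.20 and -0.33. The heart muscle list had 0.22, -0.04 and 0.10 over 11 and the endothelium list -0.04, 0.10 and 0.35 over 11.

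At 3 h several stress genes differed more in some solid organs of the same rats than in blood. No contrast of blood with another tissue passed. Blood minus heart, kidney, lung or brain stem was formed for each rat with both arrays, and PH3 was compared with Air at each time. None of these 12 comparisons called a probe set by limma, with 995 to 2653 under an unadjusted p of 0.05. Mt2A, a metallothionein that binds zinc, differed between PH3 and Air by 1.47 in heart and 1.15 in lung at 3 h and by 0.01 in blood. Blood minus heart was -1.46 (SE 0.464, adjusted p = 1) and blood minus lung -1.15 (SE 0.366, adjusted p = 0.669). Fkbp5 differed by 1.13 in kidney and 1.02 in lung at 3 h, and Gdf15 by 1.67 in kidney, and the within-rat differences from blood did not pass (adjusted p of 1, 0.778 and 1). S100a8, the partner of S100a9, differed by 1.41 in lung at 3 h and by 0.30 in blood, with blood minus lung at -1.11 (SE 0.315, adjusted p = 0.594). The larger spread of blood enters every one of these contrasts. The organs named for each gene were those with its largest differences at 3 h. Gdf15 differed by -0.37 in heart, -0.33 in lung and -0.05 in brain stem. S100a8 differed by -0.96 in brain stem, 0.03 in kidney and 0.48 in heart. Mt2A differed by 0.31 in kidney and 0.97 in brain stem, and Fkbp5 by 0.76 in heart and 0.82 in brain stem.

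The absence of calls at 24 h rested on 1 array. When each of the 23 arrays was left out in turn, 22 of these repeats called 0 probe sets at their time. Without PH3 Rat333, 172 probe sets (0.554%) passed at 24 h, 17 higher and 155 lower in PH3, with a smallest adjusted p of 0.00322 and 4137 under the unadjusted threshold. All 172 had the same sign with all arrays, but both fits share every array except Rat333, so that agreement is no separate support. The 6 named genes among them were Atf5 at 1.22, Trarg1 at 2.11, Mau2 at 1.29, Anxa1 at -2.0, Dusp6 at -2.18 and Ccng1 at -2.32. Rat333 was found to stand apart from the other PH3 rats in its first component score (50.1 against -109.6 to -70.3), in immediate early genes (mean 6.25 against 5.79 to 5.86) and in heat shock genes (7.84 against 7.01 to 7.13). Its 3 prime index of RNA integrity was 0.368, with 0.414 in Air Rat335 and 0.293 in Air Rat340, against 0.503 to 0.561 in the other PH3 rats and 0.558 in Air Rat328. Over the 7 arrays of 24 h the index and the first component score had r of -0.836. The part of these values in the result was not tested. The label of Rat333 gives no reason to leave it out, and the result with all arrays is the one reported. Without Air Rat328, whose score of -57.2 lay nearest to those of the PH3 rats, no probe set was called at 24 h and 3253 had an unadjusted p under 0.05. Without PH3 Rat341, the count was 0 with 1422 under it.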

How the data were processed

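Total RNA of blood and 5 solid tissues was hybridised to Affymetrix 3 prime arrays after 3 prime in vitro transcription. The deposited values are log2 intensities per probe set, made with Partek and RMA, per the submitters' processing notes; versions and parameters were not given in the sources used here. The deposited table held 31139 probe sets, of which 97 Affymetrix controls were left out of the tests. RMA normalizes arrays by quantiles; whether the tissues were normalized together is not given in the sources used here. Dim and near-saturated probe sets understate a change in RNA. The number of arrays limits the precision.

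Groups were taken from the array titles. limma 3.58.1 in R 4.3.3 was fitted (lmFit and eBayes, two-sided) to all 31 blood arrays in 8 groups, including the 8 arrays of 1 h, which share 1 estimate of the spread (23 residual degrees of freedom). Each time had its own contrast, with Benjamini-Hochberg adjustment across the 31042 probe sets and a threshold of 0.05. Tests of the RNA index were exact permutation tests in Python 3.11.15. The scripts were tested on simulated data.

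Gene symbols came from the platform annotation, updated through RefSeq gene IDs (18983 probe sets matched); 572 probe sets with several genes and 11407 unnamed here were tested but not named. A gene is its brightest probe set over blood arrays. Named genes are, per time, up to 8 higher and 8 lower genes with the smallest p among those without overlap of the groups, a panel of 28 measured genes, up to 3 genes per list and time by smallest p, and the 6 leading genes by p-value of the difference between times. The 27 lists and the members were chosen with earlier results of these data known, and their counts and medians carry no test. Alternatives covered the arrays in the fit, normalization, dim probe sets, covariates, array weights, the variance model and each array left out.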

Additional observations from a re-analysis of the deposited data

Results flagged for a closer look

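Within groups of 4 arrays, Dixon's test at the 95% level was applied to 850 groups of values, and 42 had 1 array far from the rest. Chance flags about 1 in 20 groups, and 35 of the 42 were among 700 groups of gene levels, so that the number is close to that share. All values are log2 levels. 

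The array with the widest gap in RNA integrity was PH3 Rat381 at 6 h, with a 3 prime index of 1.02 against 0.30 to 0.35. PH3 Rat333 at 24 h stood apart with a mean of 6.25 over immediate early genes (others 5.79 to 5.86) and of 7.84 over heat shock proteins (7.01 to 7.13), and with Spryd7 at 6.46 and Gpx6 at 4.37. The other PH3 arrays of 24 h that stood apart were Rat325 in Esam (8.50), Ncr1 (3.62) and Rhbdl3 (6.24), Rat326 in Alad (10.20) and Rat341 in Gclm (10.38, against 11.56 to 11.69).

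At 3 h, PH3 Rat361 stood apart in Ccr2 (4.60, against 6.47 to 6.63), Fcer1a (3.69), Hoxb2 (4.28) and Mx2 (5.24). PH3 Rat368 did so in Cd79b (10.02), in the mean over monocyte genes (8.05) and in that over glycolysis and hypoxia genes (6.91). PH3 Rat359 did so in Ndufa4 (10.28) and Treml1 (10.97), and PH3 Rat399 in the mean over metallothionein and zinc genes (6.03). Among the Air arrays, Rat370 did so in Ahsp (11.73), Cd14 (7.02), Cxcr3 (6.82) and Cxcr4 (9.96), Rat365 in Car1 (9.82), Cdkn1a (5.16) and Gstk1 (7.10), and Rat400 in Smtn (6.98).

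At 6 h, PH3 Rat391 stood apart in Aldh18a1 (6.34), Esam (7.36), Gstk1 (7.79) and Hmox1 (5.88). PH3 Rat375 did so in Kdr (4.70) and Pfkp (7.09), and PH3 Rat387 in Cd79b (10.03) and in the mean over heart muscle genes (4.46). Among the Air arrays, Rat388 did so in Atf5 (7.45) and Prelid2 (3.50), Rat377 in Gabrr3 (4.89) and Mt1 (5.04), and Rat394 in Smtn (6.20) and Sod3 (3.72).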

How the results depend on the processing

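Of 174 recomputed counts of called probe sets over the 6 tests, 171 were 0. The exceptions each left out 1 array. At 24 h the count ran from 0 to 172 over these repeats, with 172 without PH3 Rat333. For any of the 3 times it ran from 0 to 1, with 1 without Air Rat328. For a difference between 1, 3, 6 and 24 h it ran from 0 to 2, with 2 without PH3 Rat351 of 1 h. The cause was not tested. No paired analysis was possible because the PH3 and Air arrays of a time come from different rats, and a rat number recurs only across tissues. None of 29 recomputed comparisons of the 3 prime index passed the threshold. Over 23 arrays the index and the first component correlated (Pearson r = -0.505, permutation p = 0.0143; Spearman rho = -0.385, permutation p = 0.0711; r = -0.499 without the 2 farthest arrays). Within times r was 0.51 (3 h), -0.599 (6 h) and -0.836 (24 h), so the relation did not hold one way. Rescaling moved the median of all probe sets by under 0.1.

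Among 420 gene effects and 7282 recomputed values, 292 values of 111 effects had the other sign and 6 passed the threshold, all without Rat333. Of 84 list medians, 42 had the other sign under some setting. The neutrophil medians kept their sign throughout, at 0.32 to 0.67 for 3 h, -0.71 to -0.25 for 6 h and -0.45 to -0.21 for 24 h, when 1 array was left out. So did NK and cytotoxic genes at 24 h (-0.52 to -0.25) and glucocorticoid targets at 6 h (-0.39 to -0.21). Tfrc kept its sign at 3 h (1.01 to 1.43) and at 6 h (0.96 to 1.63), and at 24 h it ran from -1.33 to 0.03. Settings for array 24 h PH3 Rat341 and 6 h PH3 Rat381, within-rat contrasts and list medians were chosen after seeing the data.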
